A study of Mus musculus with 6 samples.

Results

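The genes described here encode the receptor chains for interleukin-2, interleukin-4, interleukin-7 and interleukin-15, together with the ligand interleukin-15. They were taken as all probe sets that the platform annotation gives to Il2ra, Il2rb, Il2rg, Il4ra, Il7r, Il15 and Il15ra, 12 probe sets of the 45037 that were not array controls. These 12 belong to 6 of the 7 genes. No probe set was named Il2rg in the annotation used here, so Il2rg has no value below. The genes were chosen by measured values, namely how their signals differed between doxycycline-treated and untreated cells and between 2 sets of arrays. Both differences are therefore given for these genes as a description, without a test.

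Cytokines of this family signal through receptors built from shared parts. IL-2 and IL-15 both use the beta chain (Il2rb) and the common gamma chain (Il2rg) for signalling, and each has a private alpha chain (Il2ra, also known as CD25, and Il15ra) that raises affinity. IL-7 uses its own alpha chain (Il7r) with the common gamma chain, and IL-4 uses Il4ra with the common gamma chain or with the IL-13 receptor chain. The beta chain, Il4ra and Il7r bind the kinase JAK1 and the common gamma chain binds JAK3, and the signal passes to STAT5 (IL-2, IL-7, IL-15) or mainly to STAT6 (IL-4). In B-cell development Il7r is the receptor for the main growth signal of early precursors, while Il2ra is a surface marker of the pre-B stage and of activated T cells.

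The cells were Ba/F3, an interleukin-3-dependent mouse line of BALB/c background, carrying the fusion gene PAX5-KIDINS220 under a doxycycline-inducible (Tet-on) promoter delivered by retrovirus. Dox(+) cells received 500 ng/mL doxycycline and Dox(-) cells none, and RNA was taken after 24 h, with 3 arrays per group. All 6 cultures carried the inducible construct and were grown with conditioned medium of WEHI-3 cells, so a control without the construct was not analysed here. The study asked which pathways the fusion affects. A treated culture without the construct was likewise not analysed, and an effect of doxycycline itself cannot be told apart from one of the fusion.

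The array codes in the labels start with EA20 for 4 arrays, 2 per group, and with EA15 for the other 2, 1 per group. The labels do not say what the codes stand for. The 2 EA15 arrays, 1 per treatment, share 1 full code and differ in its ending, while each EA20 array has a code of its own. The 2 EA20 arrays of Dox(+) cells have lower code numbers than the 2 of Dox(-) cells, so within EA20 the code order and the treatment cannot be told apart. The labels do not say whether the arrays of a group came from separate cultures, and the spread may be technical. Median signals ran from 56.5 to 65.9 over the 6 arrays. As a check of the labels, Pax5 was read by 2 probe sets. On EA20, 1421765_at measured 94.5 and 94.2 in Dox(+) cells, against 3.76 and 20.3 in Dox(-) cells, and on EA15 119 in Dox(+) cells, against 15.6 in Dox(-) cells. Its difference did not pass the threshold (log2 difference 2.06, SE 0.37, limma with Benjamini-Hochberg adjusted p 0.12), and the other, 1454401_at, had overlapping groups and a difference of 0.21 (SE 0.40, limma adjusted p 0.92). The 4 probe sets of Kidins220, the other partner of the fusion, had differences of -0.08 to 0.26 (limma adjusted p 0.54 to 0.97), and none passed.

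The label calls the cells murine leukemia cells, and the line is known as an early B-lineage one that depends on interleukin-3. All 3 measured IL-3 receptor genes (Il3ra, Csf2rb and Csf2rb2) were bright, while of 9 measured B-lineage markers only Cd79b had a mean signal over 100. The markers Cd79a, Ebf1, Rag1, Rag2 and Dntt lay under a signal of 36.3, the 40th percentile of all probe sets, which is used here as the limit for dim. The summed B-lineage signal on EA20 was 965 to 1038 in Dox(+) cells, against 853 to 914 in Dox(-) cells. On EA15 that sum was 828 in Dox(+) cells, against 688 in Dox(-) cells. Most of the sum was Cd79b, at a log2 difference of 0.22 (limma adjusted p 0.59). Ebf1 ran the other way at -0.48 (limma adjusted p 0.72), and no B-lineage marker passed. Of 9 measured T and NK cell markers, 5 were dim (Cd3d, Cd3e, Cd4, Cd8b1 and Ncr1), and Cd3g and Lat had mean signals over 100. On EA20 the summed signal of the 9 was 768 to 790 in Dox(+) cells, against 890 to 954 in Dox(-) cells. On EA15 it was 458 in Dox(+) cells, against 664 in Dox(-) cells. Cd3d, Cd3g and Lat had Dox(+) minus Dox(-) log2 differences of -0.94, -0.59 and -0.62 (limma adjusted p 0.58, 0.52 and 0.19). Among them only Lat had Dox(+) signals below Dox(-) signals without overlap in both sets. The dim Cd3d was at -1.42 in EA20 and 0.03 in EA15. Cd3g was at -0.28 in EA20, where the treatments overlapped, and at -1.20 in EA15. The other measured T and NK markers were at 0.05 to 0.41, and none passed. In bulk RNA, fewer cells with a transcript and less transcript per cell cannot be told apart.

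The clearest contrasts lay in 2 genes, the IL-2 receptor alpha chain Il2ra and the ligand Il15. Il2ra was lower in Dox(+) cells within both sets of arrays, and it was also far lower on the EA20 than on the EA15 arrays. Il15 ran the other way between the sets, with a higher signal on every EA20 array, and was higher in Dox(+) cells on EA15 only. Il15ra was lower on EA20 and close to equal between the treatments, and Il4ra, Il2rb and Il7r differed less or were read differently by their probe sets. Over the whole table, with doxycycline and array code as terms, 0.0866% of all 45037 probe sets passed the limma threshold for doxycycline (Benjamini-Hochberg adjusted p under 0.05), 0.0577% as higher and 0.0289% as lower in Dox(+) cells. For array code 24.8% passed, 13.4% as higher and 11.4% as lower on EA20.

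**Figure D1:**
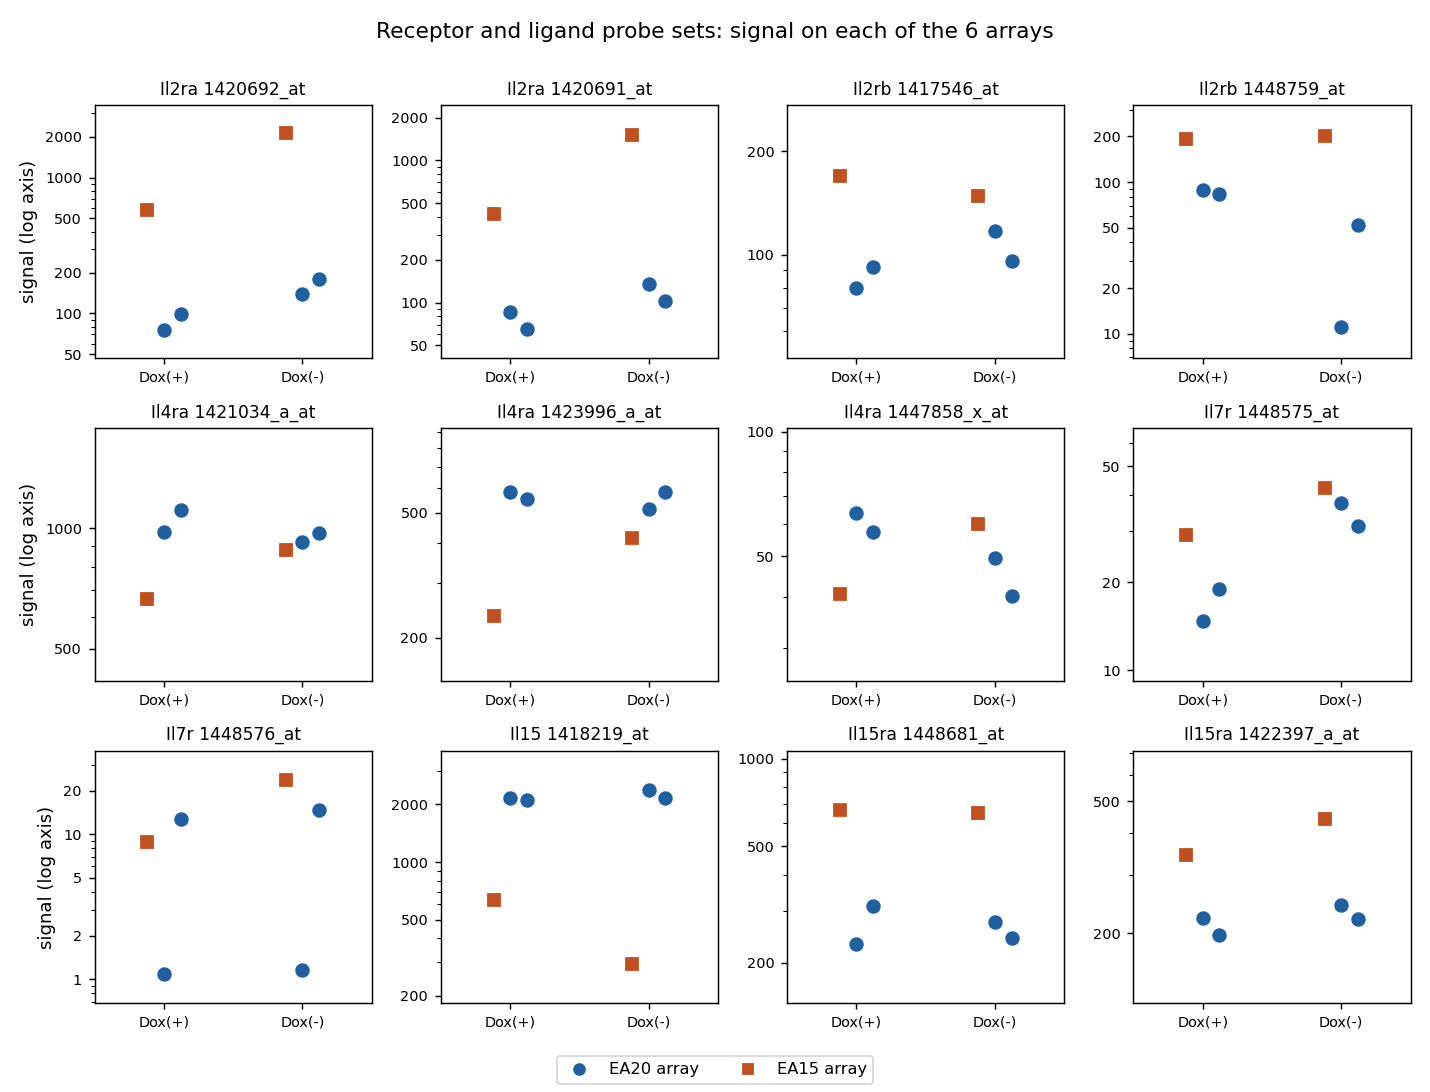
Signal of each of the 12 probe sets on each of the 6 arrays, on log axes, with Dox(+) arrays to the left of Dox(-) arrays. Circles are EA20 arrays and squares EA15 arrays, so that the 2 Il2ra panels show the squares (420 to 2121) above the circles (65.4 to 178), and the Il15 panel shows the reverse.

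Il2ra encodes the alpha chain that turns the intermediate-affinity IL-2 receptor into the high-affinity one, and its own transcription is known to be raised by STAT5 and NF-kappaB in lymphocytes. Its brighter probe set 1420692_at had signals of 75.4 and 98.9 in Dox(+) cells on EA20, against 138 and 178 in Dox(-) cells. On EA15 it had 574 in Dox(+) cells, against 2121 in Dox(-) cells. Both sets therefore had their Dox(+) signals below their Dox(-) signals, but the Dox(+) array of EA15 lay above all 4 EA20 arrays, so the 3 arrays of one treatment overlap with the 3 of the other. The group means were 249 ± 281 in Dox(+) cells and 812 ± 1133 in Dox(-) cells (SD, n = 3 each), with SDs that mostly reflect the gap between the sets.

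The other Il2ra probe set, 1420691_at, gave the same picture. It had signals of 85.6 and 65.4 in Dox(+) cells on EA20, against 135 and 103 in Dox(-) cells. The EA15 signals were 420 in Dox(+) cells and 1521 in Dox(-) cells. On the log2(signal + 16) scale, which is used for all differences and folds here and understates those of dim probe sets, the Dox(+) minus Dox(-) difference of 1420692_at was -0.76 in EA20 and -1.86 in EA15. These correspond to 0.592 and 0.276 of the Dox(-) level. For 1420691_at the differences were -0.56 in EA20 and -1.82 in EA15, or 0.679 and 0.284 of the Dox(-) level. The differences averaged over the sets by the fit were -1.12 (SE 0.23) for 1420692_at and -0.98 (SE 0.26) for 1420691_at. For both, the EA15 pair, with 1 array per treatment, had the larger difference.

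Il2rb encodes the chain that IL-2 and IL-15 receptors share, and its 2 probe sets did not run together. Probe set 1417546_at had signals of 80.2 and 92.1 in Dox(+) cells on EA20, against 117 and 96.2 in Dox(-) cells. Its EA15 arrays gave 170 in Dox(+) cells and 149 in Dox(-) cells. The Dox(+) signals were thus below in EA20 and above in EA15, with differences of -0.26 and 0.18. Probe set 1448759_at had signals of 88.3 and 83.5 in Dox(+) cells on EA20, against 11.1 and 52.0 in Dox(-) cells. On EA15 it had 193 in Dox(+) cells, against 199.9 in Dox(-) cells. It was the only one of the 12 probe sets past 2-fold on EA20, as were 3.65% of all in either direction. Its difference of 1.25 in EA20 ran opposite to that of 1417546_at and rests partly on 1 dim Dox(-) array, while in EA15 it was -0.05.

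Il15ra encodes the alpha chain that presents IL-15, often on the same cell that makes the ligand, to cells with the beta and gamma chains. Probe set 1448681_at had signals of 232 and 313 in Dox(+) cells on EA20, against 276 and 243 in Dox(-) cells. The EA15 signals were 664 in Dox(+) cells and 652 in Dox(-) cells. The treatments overlapped on EA20 and lay close together on EA15, and the averaged difference was 0.05 (SE 0.13). Probe set 1422397_a_at, which can match several transcript forms, had signals of 222 and 197 in Dox(+) cells on EA20, against 244 and 220.5 in Dox(-) cells. Its EA15 arrays gave 344 in Dox(+) cells and 443 in Dox(-) cells. Its Dox(+) signals were lower on average in both sets, with overlap on EA20 and an averaged difference of -0.21 (SE 0.13).

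Il15 is the cytokine itself, made mainly by myeloid and stromal cells and needed for NK cells and memory T cells. Its 1 probe set, 1418219_at, had signals of 2158 and 2110 in Dox(+) cells on EA20, against 2385 and 2155 in Dox(-) cells. On EA15 it had 635 in Dox(+) cells, against 292 in Dox(-) cells. The treatments overlapped on EA20, with a difference of -0.09, and on EA15 the Dox(+) signal was 2.11 times the Dox(-) one. The averaged difference of 0.30 (SE 0.19) therefore comes from the EA15 pair alone, where each treatment has 1 array. Only this probe set of the 12 was at least 2-fold higher in Dox(+) cells on EA15, as were 4.63% of all probe sets, and the 2 Il2ra probe sets were at least 2-fold lower there, as were 3.74%.

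Il4ra encodes the IL-4 binding chain, which is also part of the IL-13 receptor, and 3 probe sets read it. Probe set 1421034_a_at had signals of 978 and 1112 in Dox(+) cells on EA20, against 922 and 973 in Dox(-) cells. The EA15 signals were 665 in Dox(+) cells and 880 in Dox(-) cells. The Dox(+) signals were above on EA20 and below on EA15, with differences of 0.14 and -0.40. Probe set 1423996_a_at had signals of 580.0 and 552 in Dox(+) cells on EA20, against 515 and 580.2 in Dox(-) cells. Its EA15 arrays gave 234 in Dox(+) cells and 416 in Dox(-) cells. The treatments overlapped on EA20 (difference 0.05), and on EA15 the Dox(+) signal was 0.580 of the Dox(-) one. The dimmer 1447858_x_at, whose suffix marks probes that may match other genes, had signals of 40.2 to 63.7 over the 6 arrays. Its differences were 0.33 in EA20 and -0.42 in EA15, again of opposite sign in the 2 sets.

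Il7r encodes the IL-7 receptor alpha chain, and both of its probe sets had a mean signal under the dim limit. Probe set 1448575_at had signals of 14.8 and 18.9 in Dox(+) cells on EA20, against 37.6 and 31.2 in Dox(-) cells. On EA15 it had 29.1 in Dox(+) cells, against 42.3 in Dox(-) cells. All 3 Dox(+) arrays lay under all 3 Dox(-) arrays, the only one of the 12 probe sets of which this holds, where 3.99% of all probe sets did. None of the 12 had all Dox(+) arrays over all Dox(-) arrays, as 3.75% of all did. The averaged difference was -0.53 (SE 0.34) at a pseudocount of 16, and at a pseudocount of 1 it was -0.84. The other probe set, 1448576_at, had signals of 1.09 to 23.6 over the 6 arrays, with overlapping treatments on EA20 and a difference of -0.05 there. Signals this low carry little information about the transcript.

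**Figure D2:**
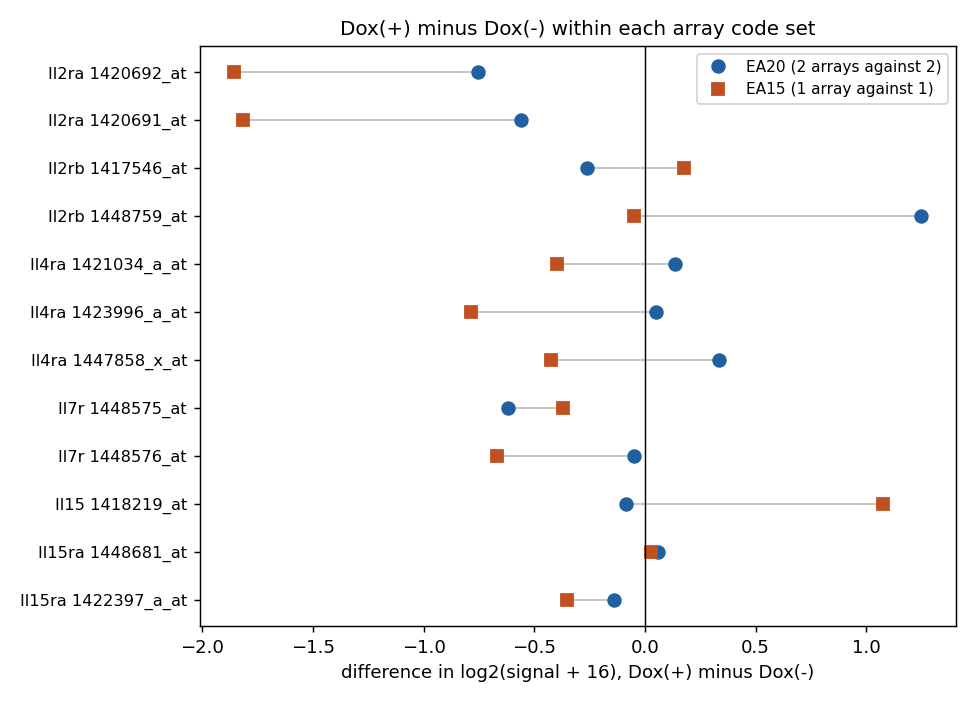
Difference in log2(signal + 16), Dox(+) minus Dox(-), of the 12 probe sets within EA20 (circles, 2 arrays against 2) and within EA15 (squares, 1 array against 1). Points left of 0 are lower in Dox(+) cells, as in both sets for Il2ra, and lines joining points across 0 mark probe sets whose sign differs between the sets.

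Within both sets, Dox(+) signals lay below Dox(-) signals without overlap for 3 of the 12 probe sets, the 2 of Il2ra and 1448575_at of Il7r, as for 11.6% of all probe sets. The same in the higher direction held for 0 of the 12 and 10.8% of all. In 4 of the 12 the EA20 arrays separated the treatments in the direction opposite to that of EA15, and 18.0% of all probe sets did so. The median difference over the 12 was -0.16, and over all probe sets -0.01. In the limma fit with a term for the interaction of doxycycline and array code, 0.00% of all probe sets passed, and 2697 of the 45037 had an unadjusted p under 0.05. That fit takes the lone EA15 arrays to vary like the EA20 arrays.

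Between the sets of arrays the differences were larger than those between treatments. Over the 12 probe sets the median size of the EA20 minus EA15 difference was 0.79, and that of the Dox(+) minus Dox(-) difference 0.24. Over all 45037 probe sets the medians were 0.35 and 0.18. In 6 of the 12 all 4 EA20 arrays lay under both EA15 arrays, as for 17.7% of all probe sets, and in 3 they lay over both, as for 21.9%. The 6 were those of Il2ra, Il2rb and Il15ra, and the 3 were that of Il15 and 1421034_a_at and 1423996_a_at of Il4ra.

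Il2ra 1420692_at had a mean signal of 123 on the 4 EA20 arrays and 1347 on the 2 EA15 arrays. The EA20 minus EA15 difference was -2.52 in Dox(+) cells and -3.63 in Dox(-) cells, so the gap was wide in both treatments and wider without doxycycline. Il2ra 1420691_at had means of 97.2 on EA20 and 971 on EA15, with differences of -2.26 in Dox(+) cells and -3.52 in Dox(-) cells. Il15 had means of 2202 on EA20 and 464 on EA15, and its level on EA20 was 3.30 times that on EA15 in Dox(+) cells and 7.41 times in Dox(-) cells. The ligand and the IL-2 receptor alpha chain thus differed in opposite directions, and for both the Dox(+) array of EA15 lay between the Dox(-) array of EA15 and the EA20 arrays.

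The 2 Il15ra probe sets were lower on EA20, with means of 266 on EA20 and 658 on EA15 for 1448681_at and of 221 on EA20 and 393 on EA15 for 1422397_a_at. For 1448681_at the difference was nearly the same in the treatments, -1.25 in Dox(+) cells and -1.28 in Dox(-) cells. Il15ra and its ligand Il15 therefore ran in opposite directions between the sets. Both Il2rb probe sets were lower on every EA20 array, with differences of -0.87 in Dox(+) cells and -0.43 in Dox(-) cells for 1417546_at and of -1.03 in Dox(+) cells and -2.33 in Dox(-) cells for 1448759_at. Il4ra 1423996_a_at was higher on EA20, with differences of 1.22 in Dox(+) cells and 0.38 in Dox(-) cells. For 1421034_a_at they were 0.64 in Dox(+) cells and 0.10 in Dox(-) cells, and the last of these turned negative when the arrays were centred on their medians. No other sign of a difference between the sets, and none between the treatments within a set, changed under quantile normalization, median centring or pseudocounts of 1 and 64.

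**Figure D3:**
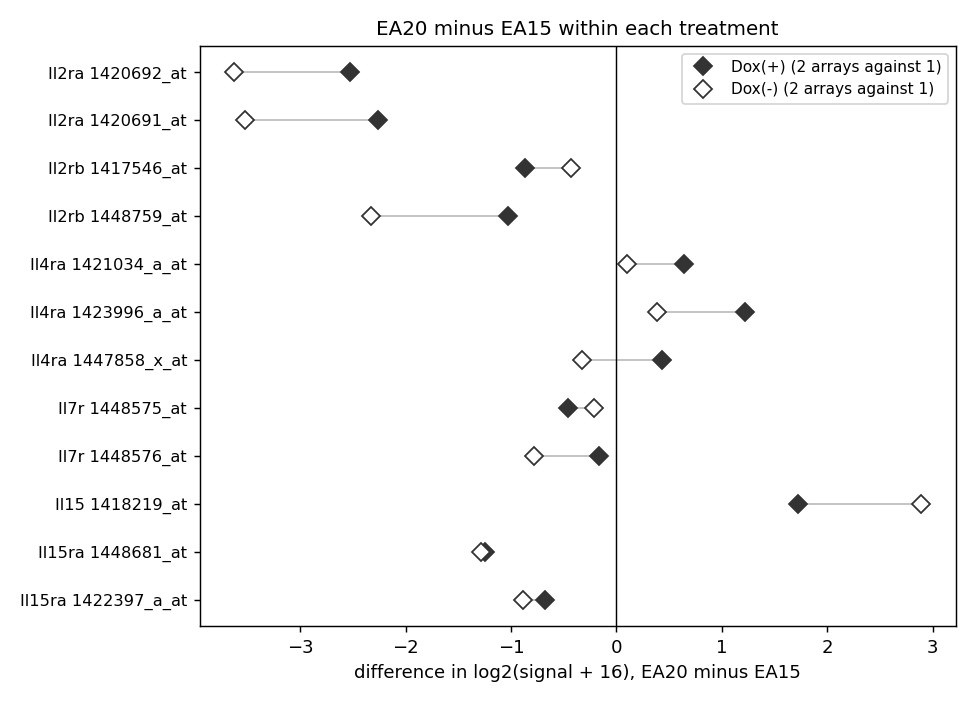
Difference in log2(signal + 16), EA20 minus EA15, of the 12 probe sets in Dox(+) cells (filled) and in Dox(-) cells (open), 2 arrays against 1 in each. Il2ra lies at -2.26 or below in both treatments and Il15 at 1.72 or above.

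Genes of other lineages differed by array code and by treatment as well. The summed signal of 9 mast cell, basophil and eosinophil markers was 17167 to 24055 on EA20 and 599 to 854 on EA15, and on EA20 most of it was Prg2, the eosinophil major basic protein. Within EA20 the sum was 22943 to 24055 in Dox(+) cells, against 17167 to 17408 in Dox(-) cells, and on EA15 it was 854 in Dox(+) cells, against 599 in Dox(-) cells. Of these 9, Cpa3, Mcpt8 and Kit were dim. One marker passed for doxycycline, Siglecf, an eosinophil surface lectin, with a log2 difference of 0.94 (SE 0.10, limma adjusted p 0.019). Prg2 was at 0.41 (SE 0.06), Epx at 0.54 (SE 0.18) and Ccr3 at 2.14 (SE 0.39), with limma adjusted p of 0.055, 0.40 and 0.13. Ms4a2, Cpa3 and Fcer1a also had positive differences, of 0.502, 1.05 and 0.252, though that of Ms4a2 was 0.76 in EA20 and -0.01 in EA15. The dim Mcpt8 and Kit had negative differences. Mcpt8 had signals of 4.79 to 5.77 in Dox(+) cells, against 18.9 to 36.1 in Dox(-) cells (limma adjusted p 0.32). Kit was at -0.298 (limma adjusted p 0.91). Of 6 macrophage and monocyte markers only Cd14 was dim, and their sum was 1656 to 1865 on EA20 and 1300 to 1427 on EA15. That sum was 1800 to 1865 in Dox(+) cells and 1656 to 1691 in Dox(-) cells on EA20, and ran the other way on EA15, with 1300 in Dox(+) cells and 1427 in Dox(-) cells. The sum hides members that differ in direction. Between the sets, Adgre1, Csf1r and Itgam were higher on EA20 (0.40, 1.40 and 1.67), while Cd14, Cd68 and Lyz2 were lower (-0.85, -0.71 and -0.58). Within EA20, Dox(+) minus Dox(-) was 0.29, 0.42 and 0.04 for Adgre1, Itgam and Lyz2. For Csf1r, Cd14 and Cd68 it was -0.32, -0.26 and -0.06. The 3 IL-3 receptor genes summed to 37551 to 41044 on EA20 and 13600 to 14567 on EA15. The 9 T and NK markers summed to 768 to 954 on EA20 and 458 to 664 on EA15, with Cd3g at 241 to 382 on EA20 and 6.68 to 36.0 on EA15. Their part in the differences of the IL-2 and IL-15 receptor genes was not tested.

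Il2ra and Il15ra are next to each other among the protein-coding genes of mouse chromosome 2, and both were lower on EA20, so their promoters are shown. The sequences are RefSeq's (GRCm38.p6) and run from 250 bases before to 50 after each start. The Il2ra promoter is chr2:11642542-11642841 on the plus strand. The 2 Il15ra promoters, on the same strand and 62501 bases downstream at the nearer one, are chr2:11705043-11705342 and chr2:11705462-11705761, from starts 419 bases apart. Capitals mark matches to the NF-kappaB consensus, one of 4 motifs searched on both strands.
Il2ra: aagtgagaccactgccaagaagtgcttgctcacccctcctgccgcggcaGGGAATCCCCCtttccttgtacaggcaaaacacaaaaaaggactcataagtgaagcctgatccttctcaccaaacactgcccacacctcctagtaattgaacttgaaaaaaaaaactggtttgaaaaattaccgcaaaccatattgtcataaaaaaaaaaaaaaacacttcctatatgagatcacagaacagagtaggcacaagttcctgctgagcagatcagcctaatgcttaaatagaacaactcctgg
Il15ra, first start: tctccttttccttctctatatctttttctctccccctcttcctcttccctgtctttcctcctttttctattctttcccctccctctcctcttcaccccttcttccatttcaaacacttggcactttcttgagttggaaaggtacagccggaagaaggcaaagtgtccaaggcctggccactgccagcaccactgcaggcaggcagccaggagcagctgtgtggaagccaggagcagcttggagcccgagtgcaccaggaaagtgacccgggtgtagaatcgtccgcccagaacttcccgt
Il15ra, second start: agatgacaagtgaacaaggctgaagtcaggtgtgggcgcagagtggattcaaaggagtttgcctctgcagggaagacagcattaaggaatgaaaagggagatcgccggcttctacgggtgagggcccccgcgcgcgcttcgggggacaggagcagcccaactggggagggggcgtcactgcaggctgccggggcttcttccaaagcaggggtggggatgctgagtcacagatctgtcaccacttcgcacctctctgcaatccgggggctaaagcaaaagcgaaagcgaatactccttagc
The other motifs were TTCNNNGAA, to which STAT5 binds, the STAT6 form with 1 more base in its middle, and GATAA, the core of GATA sites. The 2 NF-kappaB matches in the Il2ra promoter overlap each other, and none of the 4 motifs has a match in either Il15ra window.

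Of the 7 genes, 5 had a promoter in the table, 6 windows in all, and Il2rb and Il15 had none. The Il7r promoter, at chr15:9529827-9530126 on the minus strand, holds 1 match to TTCNNNGAA and is shown with it in capitals.
Il7r: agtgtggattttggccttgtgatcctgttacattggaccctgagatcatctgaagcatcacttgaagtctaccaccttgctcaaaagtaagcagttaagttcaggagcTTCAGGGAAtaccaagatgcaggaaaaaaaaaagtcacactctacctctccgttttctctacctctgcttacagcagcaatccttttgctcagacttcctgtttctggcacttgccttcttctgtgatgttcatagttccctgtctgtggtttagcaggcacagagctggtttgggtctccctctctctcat
The Il4ra promoter (chr7:125552021-125552320, plus strand) holds 1 NF-kappaB match, and the Il2rg promoter none of the 4 motifs. Among all 32851 promoter windows of the table, 8.46% hold the NF-kappaB consensus, 8.30% TTCNNNGAA, 6.95% the STAT6 form and 25.4% GATAA. A match describes these letters and does not show that a factor binds.

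The protein-coding genes on either side were read from the same fit, chosen after the values of Il2ra and Il15 were seen. Rbm17, the neighbour of Il2ra on the other side from Il15ra, had a difference of -0.75 between EA20 and EA15 (limma adjusted p 2.1e-05), while Pfkfb3, next to Rbm17, and Fbh1, next to Il15ra, were at 0.07 and -0.08 (limma adjusted p 0.84 and 0.55). Beside Il15 on chromosome 8, Inpp4b and Zfp330 were at 0.15 and 0.12 between the sets (limma adjusted p 0.64 and 0.27), and Rnf150, next to Zfp330, at 1.19 (limma adjusted p 0.022). None of these 6 genes passed for doxycycline (limma adjusted p 0.23 to 0.94).

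Likeness of pattern was measured as Pearson's r of log2(signal + 16) over the 6 arrays for each gene whose brightest probe set spanned at least 1 log2 unit, among probe sets with a mean signal of at least 100. For Il2ra 1420692_at the nearest genes were Rnf10 (r 0.997) and Tmem70 (r 0.997), with differences between EA20 and EA15 of only -0.32 and -0.29. For Il15 they were Me2 (r 0.998) and Slc38a10 (r 0.998), and for Il15ra 1448681_at Dnaja3 (r 0.999) and Hmox2 (r 0.998). With 6 arrays in 2 sets such values are common, since 458 of 16516 candidate probe sets had an r over 0.95 with Il2ra, 1205 of 16517 with Il15 and 1522 of 16516 with Il15ra. The points share the array sets and their scaling, so no test is given.

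Around the receptors, 60 further genes of the pathways with a named probe set were described, with the brightest probe set for each gene. None passed for doxycycline in the limma fit (0 higher, 0 lower; lowest adjusted p 0.11), where 0.143% of the brightest probe sets of all genes did. At an unadjusted limma p under 0.05 there were 11 of the 60, and 11.2% of the brightest probe sets of all genes. Their median difference was 0.02, with 31 positive and 29 negative. Between the sets of arrays 15 were higher and 12 lower on EA20, with 3 of 4 JAK and 3 of 4 STAT genes among the higher and 4 of 8 inhibitors among the lower. Of the brightest probe sets of all genes 32.7% passed, 16.8% were higher and 15.8% lower. That share includes dim genes, and 18 of the 60 were dim. When dim probe sets were left out of the fit, 12101 of 27022 probe sets passed for array code. That count takes every probe set that was not dim, and not the brightest of each gene. The 15 and 12 above include dim genes, so the shares are not directly comparable.

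Among the other ligands, 6 of 7 were dim. Il4, the exception, had signals of 101 and 156 in Dox(+) cells on EA20, against 36.0 and 42.8 in Dox(-) cells, and 45.3 in Dox(+) cells on EA15, against 28.8 in Dox(-) cells. Its 3 Dox(+) signals were above its 3 Dox(-) signals, with a difference of 1.05 (SE 0.35, limma adjusted p 0.39) that did not pass. The next by p were Il9 at -0.58 (SE 0.37, limma adjusted p 0.67) and Il21 at 0.52 (SE 0.35, limma adjusted p 0.70). None of the 5 other receptor chains passed in either comparison, though 1 was lower on EA20 after quantile normalization and after median centring. The 3 with the smallest p for doxycycline were Il9r at 0.36, Crlf2, the chain that pairs with Il7r for the cytokine TSLP, at 0.21, and Il13ra2, a decoy receptor for IL-13, at -0.14 (limma adjusted p 0.70, 0.76 and 0.93).

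Jak1 and Jak3, the kinases bound to the receptor chains, were higher on EA20 by 1.16 (SE 0.07) and 1.03 (SE 0.12), and Jak2 by 1.25 (SE 0.14), with limma adjusted p of 2.5e-06, 1.4e-04 and 1.4e-04. Tyk2, at 0.10, did not pass. For doxycycline, Jak2 was at 0.47 (SE 0.14, limma adjusted p 0.31), Tyk2 at 0.16 (0.63) and Jak1 at -0.06 (0.84). Jak2 had signals of 3453 and 3500 in Dox(+) cells on EA20, against 2032 and 2137 in Dox(-) cells, and 1105 in Dox(+) cells on EA15, against 1141 in Dox(-) cells. Its differences were thus 0.73 in EA20 and -0.05 in EA15 (interaction 0.78, SE 0.12, limma adjusted p 0.36), and it passed in EA20 alone. It also passed when either EA15 array was left out, which is no separate check, as the difference then rests on EA20 alone. Of 4 measured STAT genes 3 were higher on EA20, namely Stat3 at 1.05, Stat5b at 0.86 and Stat6 at 0.64 (limma adjusted p 2.6e-05, 6.3e-05 and 1.2e-04). With doxycycline, Stat6, the IL-4 signal transducer, was at 0.16 (SE 0.07, limma adjusted p 0.51), Stat5b at 0.18 (0.54) and Stat5a at -0.10 (0.82). These counts of kinases and STAT genes between the sets were the same under quantile normalization and median centring.

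Of 10 measured adaptors and kinases, 8 had positive differences with doxycycline and none passed. The smallest p were those of the adaptors Gab2 at 0.45 (SE 0.08, limma adjusted p 0.11) and Grb2 at 0.29 (SE 0.06, 0.17), and of the kinase Syk at 0.26 (SE 0.09, 0.40). Gab2 had signals of 2559 and 2551 in Dox(+) cells on EA20, against 1668 and 1853 in Dox(-) cells, and 1383 in Dox(+) cells on EA15, against 1141 in Dox(-) cells. Both sets thus had higher Gab2 signals in Dox(+) cells, and it passed when the dim probe sets were left out of the fit. Between the sets of arrays 4 of the 10 were higher and 2 lower on EA20.

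Of 8 inhibitors, 4 were lower and 1 higher on EA20. Cish, a STAT5-induced inhibitor of cytokine receptors, had signals of 606 and 493 in Dox(+) cells and 581 and 514 in Dox(-) cells on EA20, against 3097 in Dox(+) cells and 3583 in Dox(-) cells on EA15. It was lower on EA20 by a log2 difference of -2.57 (SE 0.10, limma adjusted p 3.1e-07). Socs1, which inhibits the JAK kinases, was at -2.26 (SE 0.43, limma adjusted p 0.0031), and the ubiquitin ligase gene Cblb was at 1.09 (SE 0.07, limma adjusted p 4.0e-06). No inhibitor passed for doxycycline, the smallest p being those of Ptpn2 at -0.11, Ptpn6 at 0.10 and Cish at -0.07 (limma adjusted p 0.61, 0.72 and 0.88).

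Of 14 genes listed as STAT5 targets, 3 were higher and 6 lower on EA20. Pim2, a survival kinase, was lower by -2.89 (SE 0.16) and the cytokine Osm by -1.46 (SE 0.09), while Gzmb, the cytotoxic protease granzyme B, was higher by 3.32 (SE 0.25), with limma adjusted p of 1.7e-06, 2.5e-06 and 9.9e-06. Myc, at -0.36 with doxycycline (SE 0.08, limma adjusted p 0.18), Gzmb at -0.88 (SE 0.23, 0.29) and Bcl2 at -0.27 (SE 0.11, 0.46) had the smallest p for treatment. Gzmb had signals of 11633 and 13338 in Dox(+) cells on EA20, against 17703 and 15510 in Dox(-) cells, and 747 in Dox(+) cells on EA15, against 2693 in Dox(-) cells. Like Il2ra it was lower in Dox(+) cells in both sets, and unlike Il2ra it was higher on EA20. Of 8 STAT6 targets 7 were dim and none passed in either comparison. The smallest p for doxycycline were those of Mrc1 at -0.87, Ciita, the MHC class II transactivator, at -0.99, and Fcer2a, the low-affinity IgE receptor, at 0.29 (limma adjusted p 0.50, 0.54 and 0.88).

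**Figure D4:**
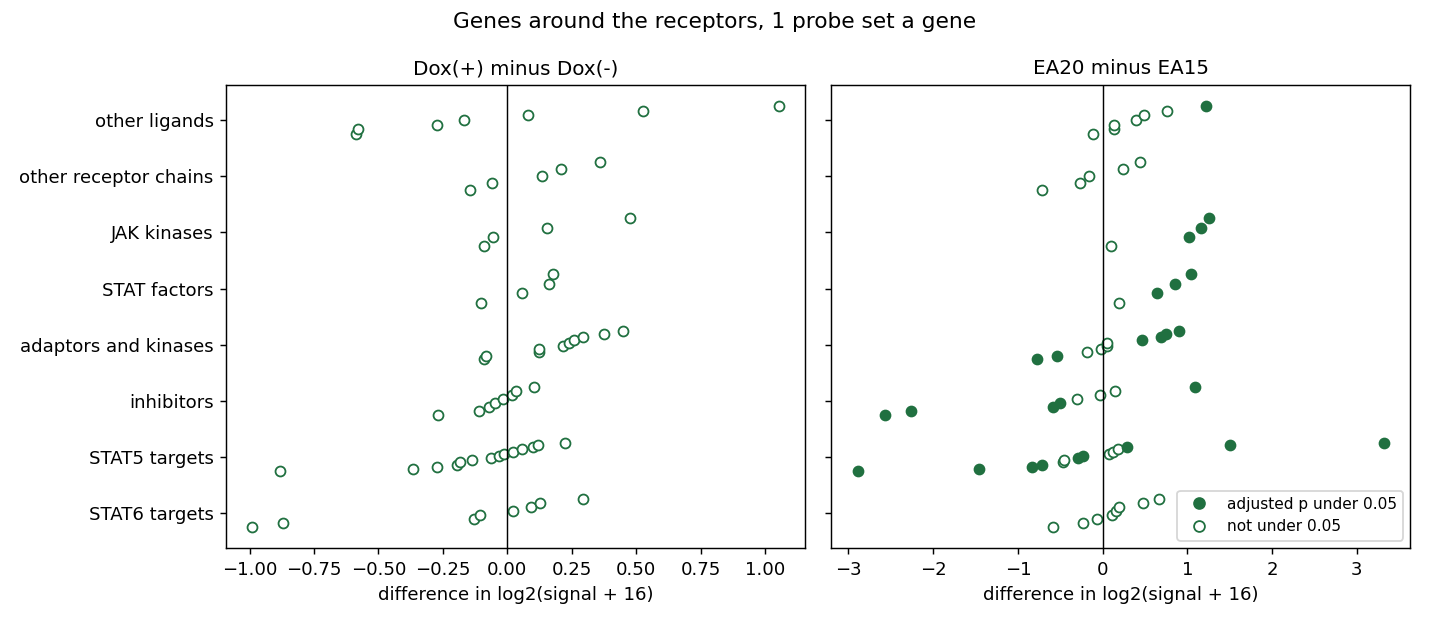
Difference in log2(signal + 16) of 60 genes around the receptors, by list, for Dox(+) minus Dox(-) (left) and EA20 minus EA15 (right), 1 point a gene. Filled points have a limma adjusted p under 0.05, which holds for 0 genes on the left and for 27 on the right.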

How the data were processed

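RNA was measured on 6 Affymetrix arrays, 3 Dox(+) and 3 Dox(-). Per the submitters' processing notes, Affymetrix Expression Console was used; the sources used here give neither its settings nor its version. The deposited files hold linear signal intensity for each probe set. All arrays share a mean of 500 once the top and bottom 2% are trimmed. A change in total mRNA would therefore not show. No detection calls were used, and the small number of arrays limits precision. Of 45101 probe sets 64 were controls, 34945 had 1 gene symbol, 932 several and 9160 none listed; symbols updated through Entrez identifiers changed in 0 cases.

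Signals were analysed as log2(signal + 16) with limma 3.58.1 in R 4.3.3 (lmFit, eBayes with a mean-variance trend, two-sided, Benjamini-Hochberg adjusted p under 0.05). All 45037 probe sets were fitted, with doxycycline and the start of the array code as terms. The code was added as a term because the genes were defined within it. Replicate numbers only name the arrays. The receptor genes, the lists and the fit were chosen with earlier results of these data known. Named genes of a pathway list were those past the threshold for doxycycline or, as none passed, up to 3 with the smallest p; those named for array code and the markers were chosen after their values were seen. On data simulated for Dox(+) against Dox(-), with 45037 probe sets and 200 changed above the dim limit, the fit recovered 17.9%, 37.3% and 75.8% of 1.5-, 2- and 4-fold changes, with 7 false among 94 calls. The alternatives are listed with their effects in the closing section.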

Additional observations from a re-analysis of the deposited data

Results flagged for a closer look

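In 4 of the 12 probe sets the Dox(+) arrays lay on opposite sides of the Dox(-) arrays in the 2 array code sets, without overlap on EA20. The EA20 minus EA15 difference between the doxycycline effects, on the log2(signal + 16) scale, was -0.44 (SE 0.47) for Il2rb 1417546_at and 1.30 (SE 0.84) for Il2rb 1448759_at. It was 0.53 (SE 0.16) for Il4ra 1421034_a_at and 0.76 (SE 0.70) for Il4ra 1447858_x_at. That difference is not tested for these genes, which were chosen on this contrast, and EA15 has 1 array per treatment. Of all probe sets 18.0% showed such opposite sides. For Il2rb the 2 probe sets had opposite signs, and for Il4ra the 2 flagged here had the same sign. Probe sets outside this flag also differed, Il15 by -1.16 (SE 0.14) and Il4ra 1423996_a_at by 0.84 (SE 0.19). Il2ra 1420692_at was at 1.10 (SE 0.33) and 1420691_at at 1.26 (SE 0.37). The Il7r and Il15ra probe sets were at -0.25 to 0.62, with SEs of 0.26 to 0.73.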

How the results depend on the processing

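Doxycycline calls over all probe sets numbered 39 (26 higher, 13 lower). There were 0 without the array code term, 0 without the mean-variance trend, 62 and 7 at pseudocounts of 1 and 64, 110 without dim probe sets, 88 at an adjusted p under 0.10, and 0 to 37 when single arrays were left out, with 0 when any one EA20 array was missing. Array code calls numbered 11176 (6043 higher and 5133 lower on EA20), against 4803 higher and 6317 lower after median centring, which moved the median difference of all probe sets from 0.05 to -0.07. There were 7392 without the trend and 6107 with 1 probe set a gene, where fewer were tested. Interaction calls were 0, against 4 at a pseudocount of 1 and 11 without dim probe sets, the 11 including Gzmb. Of the pathway genes 0 passed for doxycycline, against 1 in EA20 alone (Jak2), 1 without dim probe sets (Gab2), and 0 to 1 when single arrays were left out. The causes were not tested. Under the 12 alternatives, Il2ra stayed lower in Dox(+) cells, at -1.32 to -0.76 for 1420692_at and -1.20 to -0.56 for 1420691_at. Il15 ran from -0.09 to 0.45, and its sign turned negative when either EA15 array was left out and in EA20 alone. These settings give the same difference, since it then rests on the EA20 arrays alone. Of the 12 receptor probe sets 8 had negative differences, and 7 to 10 under the alternatives. Il7r 1448575_at was at -0.84 and -0.25 at pseudocounts of 1 and 64. No paired analysis was possible because the labels pair at most the 2 EA15 arrays, through a shared code, and give the EA20 arrays no pairs.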
